A study of Mus musculus with 32 samples.

Results

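The transcripts of 9 receptors for blood cell growth factors, Kit, Flt3, Epor, Csf1r, Csf2ra, Csf3r, Il3ra, Il7r and Il6ra, were followed through 8 sorted fractions of mouse bone marrow at 2 ages. The 9 genes were chosen by name out of the 24421 genes of the count table, and each of the 9 passed the filter on low counts that left 14154 genes. RNA was sequenced from hematopoietic stem cells (HSCs), from the multipotent progenitors MPP1, MPP2, MPP3 and MPP4, and from the granulocyte and macrophage (GMPs), megakaryocyte and red cell (MEPs) and lymphoid (CLPs) progenitors. The mice were female C57BL/6 animals aged 10 weeks (young) or 20 months (aged), with no treatment or engineered allele given in the labels, and each fraction was represented by 2 libraries at each age, 32 in all. Marrow was pooled before sorting according to part of the study's description, and the duplicates were called independent in another, so errors and p-values here cover the spread between duplicates and may not cover that between mice. The proteins of Kit, Flt3 and Il7r were themselves sorting antigens. HSCs and MPPs were gated as IL-7 receptor-negative, lineage-negative, Sca-1+ and c-Kit+, with Flt3- gates for HSCs (CD34- CD150+ CD48-), MPP1 (CD34+ CD150+ CD48-), MPP2 (CD34+ CD150+ CD48+) and MPP3 (CD150- CD48+) and a Flt3+ gate for MPP4 (CD150- CD48+). GMPs (CD34+, Fc gamma receptor-positive) and MEPs (CD34-, Fc gamma receptor-negative) were lineage-negative, IL-7 receptor-negative, Sca-1- and c-Kit+, and CLPs were lineage-negative and IL-7 receptor-positive with low Sca-1 and c-Kit, stained for Flt3 as well. Differences in Kit, Flt3 or Il7r between fractions sorted on opposite sides of such a gate are therefore described without a test, whereas the ages were compared within 1 gate.

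Growth factors of the marrow act on progenitors through receptors of several families. Kit (receptor of stem cell factor), Flt3 (receptor of Flt3 ligand) and Csf1r (receptor of macrophage colony-stimulating factor) are receptor tyrosine kinases that dimerize on binding their ligand and phosphorylate themselves. Epor (erythropoietin) and Csf3r (granulocyte colony-stimulating factor) belong to the class I cytokine receptors and work as homodimers that signal through Jak2 and Stat proteins. Csf2ra and Il3ra are ligand-binding alpha chains that pair with a shared beta chain, Il7r pairs with the common gamma chain Il2rg, and Il6ra pairs with Il6st (gp130). Kit is the classical receptor of stem and early progenitor cells, Flt3 of lymphoid-primed progenitors, Epor of red cell precursors, Csf1r, Csf2ra and Csf3r of myeloid cells, and Il7r of early lymphocytes.

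In the GENCODE M21 annotation of GRCm38 (mm10), Kit spans 75574916 to 75656722 on chromosome 5, Flt3 147330741 to 147400489 on chromosome 5, Epor 21958897 to 21963506 on chromosome 9, Csf3r 126024550 to 126044440 on chromosome 4 and Il6ra 89864059 to 89913196 on chromosome 3. Il3ra spans 14346275 to 14356011 on chromosome 14, Il7r 9505788 to 9530176 on chromosome 15 and Csf2ra 61223957 to 61228429 on chromosome 19. Genes on the opposite strand overlap some of the receptors, Gm26597 (Flt3), Hmgxb3 (Csf1r), Gm48860 (Il3ra) and Gm42809 (Il6ra), and since no use of strand was stated for the counts, reads of these pairs cannot be told apart where exons overlap. RefSeq promoters (GRCm38.p6) of 8 of the 9 genes were used, with Csf1r left out of the search. The 250 bases before the start site were searched on both strands for letters that blood transcription factors are known to bind.

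The GATA motif AGATAAG (reverse complement CTTATCT) was held by 2.74% of 32851 promoters and, among the receptors by Epor and Il6ra. The ETS motif GAGGAAG, held by 10.6% of promoters, was found in Kit, Csf2ra and Csf3r, and the ETS motif AGGAAGT, held by 7.69%, in Il3ra, Il6ra and Il7r. TGTGGT, a RUNX motif in 14.0% of promoters, was found in Epor, and the C/EBP motif TTGCNNAA, in 9.56% in Il3ra and Il7r. The ETS motifs share the letters AGGAAG, so that 1 run can count for both, and in Il3ra the last base of AGGAAGT is the first of TTGCNNAA. Windows of 40 bases are shown 5′ to 3′ on the gene's strand for the MEP-enriched Epor, for Il6ra, which is nearly absent from MEPs and holds the same GATA letters, and for Kit, with the motif in capitals.
Epor, chr9:21963608-21963647, minus strand, motif 55 to 49 bases before the start: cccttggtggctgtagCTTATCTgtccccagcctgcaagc
Il6ra, chr3:89913407-89913446, minus strand, motif 246 to 240 bases before the start: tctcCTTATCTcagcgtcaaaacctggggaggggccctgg
Kit, chr5:75574748-75574787, plus strand, motif 223 to 217 bases before the start: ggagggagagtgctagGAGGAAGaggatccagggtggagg
The Il6ra window lies inside the opposite-strand gene Gm42809. A match of letters is a description and was not tied to binding by any measurement used here.

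Total counts were 11237384 to 17723245 per library, and a count of 0 allows up to 3 counts, or 0.169 to 0.267 CPM (the count as a share of the library total, scaled alike for all libraries). This floor, and each fold bound set against it, covers counting error only. Duplicates could differ by more, as with Il3ra at 0 and 48 counts in the young MEP libraries. HSCs, GMPs and CLPs carried the markers of their names, and MEPs carried the erythroid ones. Megakaryocyte genes, summed over 6, were at 86.4 to 98.6 CPM in young and 52.7 to 56.5 in aged MEPs. They were higher in HSCs (365 to 379 CPM young, 602 to 631 aged) and MPP2 (375 to 383 and 315 to 324). Summed over 6 markers each, GMP genes were at 74816 to 75324 CPM in young and 77495 to 78356 in aged GMPs, erythroid genes at 5109 to 5192 and 5817 to 6079 in MEPs, and HSC genes at 2352 to 2525 and 2079 to 2103 in HSCs, and 5 early lymphoid genes were at 3790.4 to 3864 and 3059 to 3638 in CLPs. Young MEPs also held early lymphoid (119 to 127 CPM) and B cell genes (174 to 184 CPM), of which aged MEPs held 0 and 0.412 to 1.16 CPM, and results on MEPs are given beside these values. CLPs also held genes of other cells. Dendritic cell genes were at 3038 to 3134 CPM in young and 7340 to 9739 in aged CLPs, and plasmacytoid dendritic cell genes at 1904 to 1931 and 3653 to 5310. Basophil and mast cell genes were at 1666 to 1700 and 7.64 to 11.8 CPM, and GMP genes at 1434 to 1465 and 205 to 288. Results on CLPs stand beside these values. In bulk samples, fewer cells of a type and less RNA per cell cannot be told apart.

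The receptors differed in where they were highest, but several shared a fraction. By mean CPM of the total count, Csf1r, Csf2ra and Il3ra were highest in GMPs of young marrow, and Flt3, Csf3r and Il6ra in MPP4. Per kilobase of merged exons, the scale on which genes can be set beside each other, Kit led young HSCs at 142 CPM per kb, ahead of Csf3r at 17.8 and Csf2ra at 12.9. Flt3 led young MPP4 at 182 CPM per kb and young CLPs at 94.3, and Epor led young MEPs at 111. Young GMPs held Csf1r, Csf3r and Csf2ra at nearly even levels of 55.9, 54.9 and 50.0 CPM per kb. In aged GMPs the same genes were at 50.0, 80.1 and 66.5, with Csf3r now first. Epor and Il7r were the most concentrated, with 86.2% of the young CPM summed over the 8 fraction means in MEPs and 88.2% in CLPs, whereas the largest share of Csf3r was 22.9% in MPP4.

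**Figure D1:**
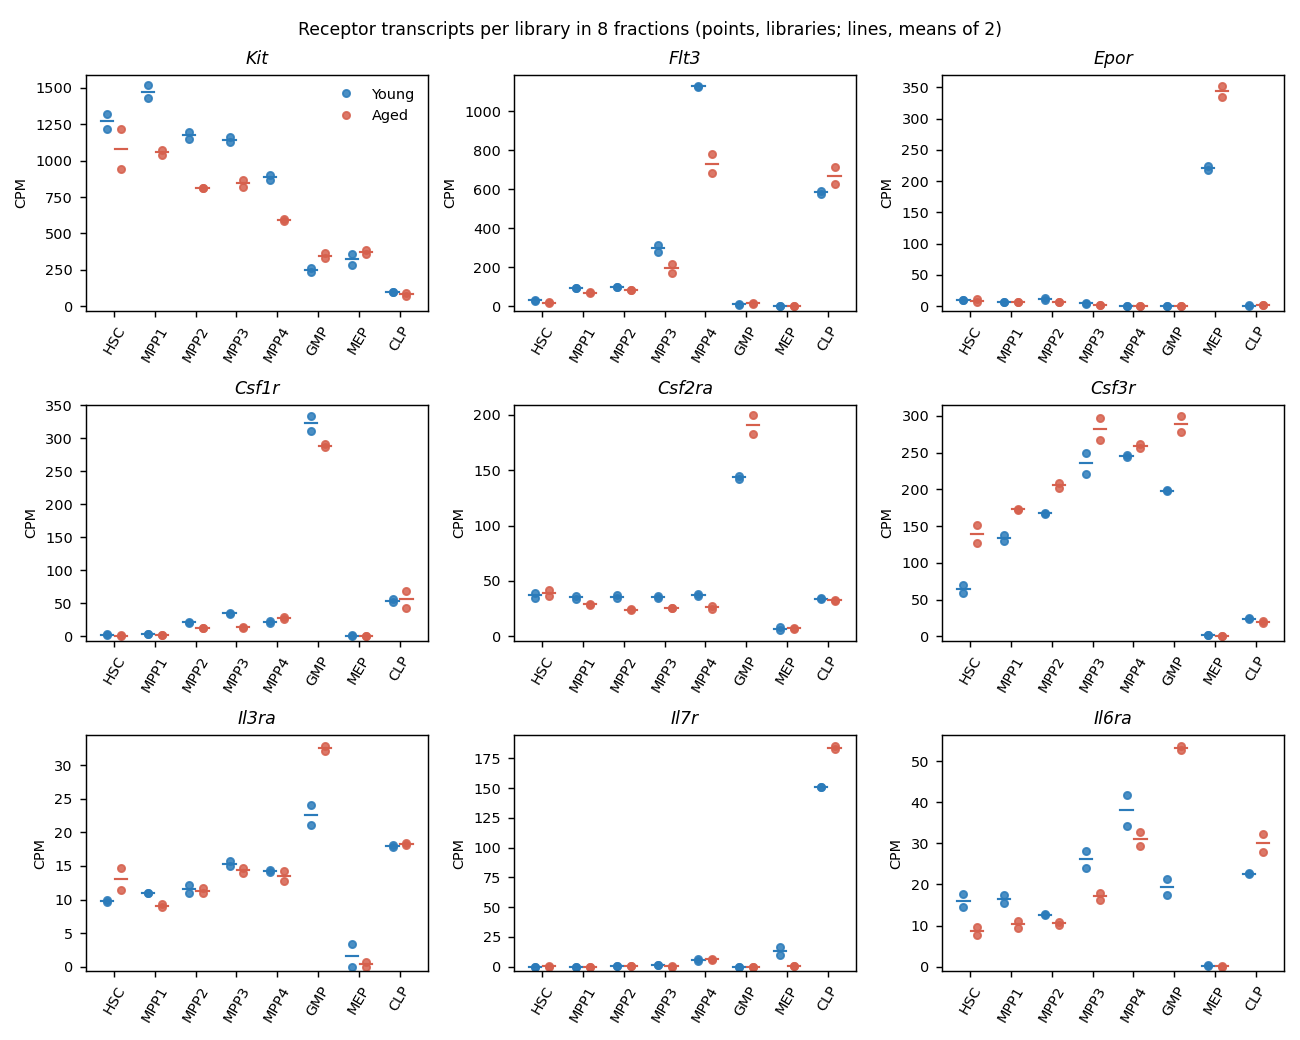
CPM (vertical axes, linear, a separate scale for each gene) of the 9 receptors in the 8 fractions; blue points are young and red points aged libraries, and short lines are the means of 2. Kit is highest in HSCs and MPPs, Epor stands out in MEPs at 222 CPM in young and 344 in aged cells, Il7r in CLPs, and Csf1r and Csf2ra in GMPs.

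Whether receptor transcripts differ between young and aged cells was asked in each fraction with edgeR's quasi-likelihood test on all 14154 genes, calling adjusted p-values under 0.01. Of the 72 age differences (9 receptors in 8 fractions), 19 were called, 5 higher and 14 lower in aged cells, or 26.4% beside 12.6% of all genes over the 8 comparisons. The higher calls were Csf3r in HSCs, MPP1 and GMPs and Kit and Il6ra in GMPs. Of the 9 receptors, 3 were called in HSCs, where 5.4% of all genes were, and 2 each in MPP1 (all genes 6.8%) and MPP2 (7.81%). MPP3 had 3 calls (13.9%) and MPP4 1 (16.6%). GMPs and MEPs had 4 calls each (all genes 18.9% and 20.8%), and CLPs had 0 (10.4% of all genes). In CLPs, DESeq2 also called 0 receptors, and 2 (Il6ra and Csf3r) had an unadjusted p under 0.05. Il3ra was the receptor without a call in any fraction.

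**Figure D2:**
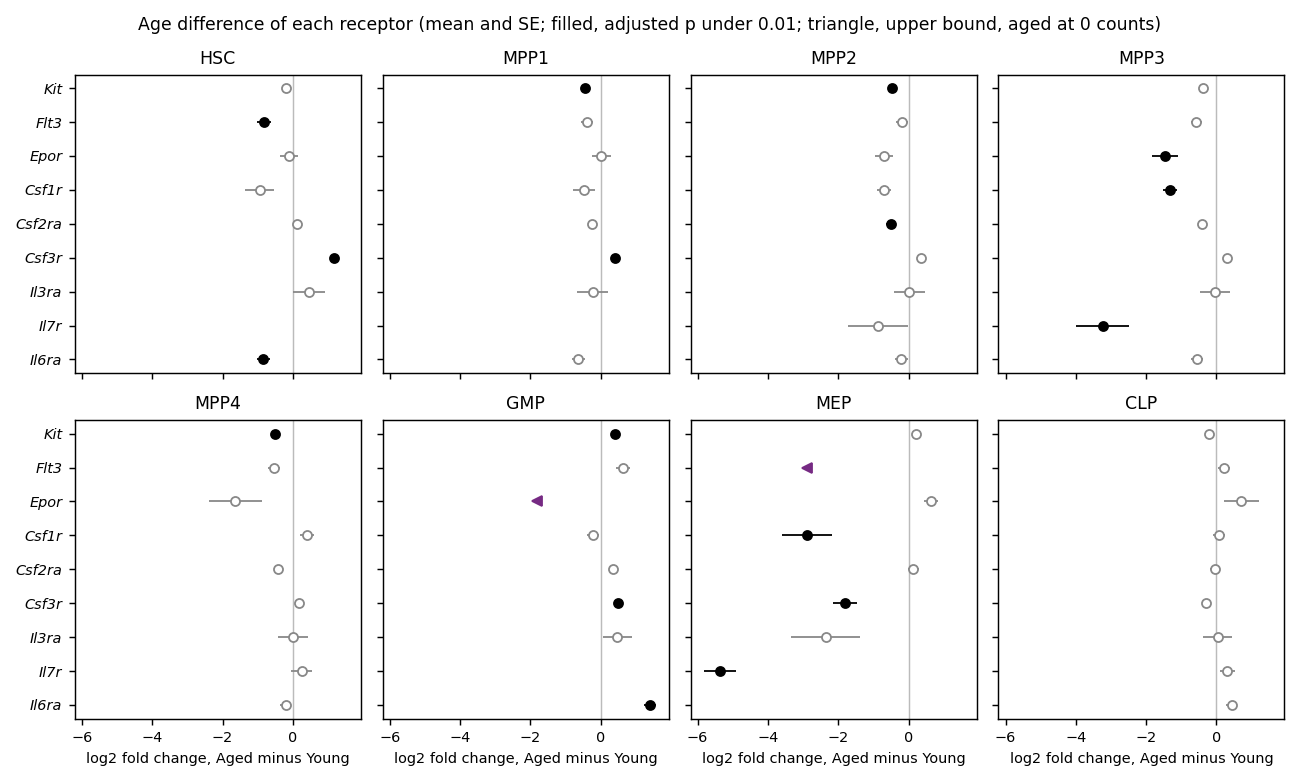
Age difference of each receptor in each fraction as log2 fold change, aged minus young (horizontal axis), with its SE. Filled points passed an adjusted p of 0.01, open points did not, triangles are upper bounds for Epor in GMPs and Flt3 in MEPs, where both aged libraries had 0 counts, and Il7r in HSCs, MPP1 and GMPs and Il6ra in MEPs, at the floor of counting in at least 1 age, are not drawn. The largest decrease is that of Il7r in MEPs, at -5.37, and GMPs hold 3 of the 5 increases.

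Calls differed in how much they rested on single libraries. Csf3r in HSCs, Csf1r in MPP3, Il6ra in GMPs and Il7r and Flt3 in MEPs kept an adjusted p under 0.01 whichever of their 4 libraries was left out, and the other 14 calls were each lost without at least 1 library. Fitting only the 4 libraries of each fraction kept 10 of the 19 calls and added 7. The added calls were Il6ra and Flt3 in MPP1, Csf1r and Csf3r in MPP2, Kit in MPP3, Flt3 in MPP4 and Epor in MEPs. Of all genes, that fit called more in MPP1 (2421 beside 963) and MPP2 (3336 beside 1105). It called fewer in the other fractions, such as HSCs (207 beside 764) and CLPs (128 beside 1478). The 9 lost were Flt3 and Il6ra in HSCs, Epor and Il7r in MPP3, Kit and Epor in GMPs, and Flt3, Csf1r and Csf3r in MEPs, with adjusted p of 0.0113 to 0.0885.

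Kit, the receptor of stem cell factor, was lower in aged MPP1, MPP2 and MPP4 and higher in aged GMPs. It was at 1319 and 1220.2 CPM in young and 1215 and 943 CPM in aged HSCs, where the ranges did not overlap but the difference was not called (log2 fold change -0.19, SE 0.11, adjusted p 0.295). In MPP1 the values were 1519 and 1431 CPM in young and 1040.5 and 1074 CPM in aged cells (log2 fold change -0.44, SE 0.11, adjusted p 0.00844). MPP2 had 1198 and 1150.5 CPM in young and 813 and 811 in aged libraries (log2 fold change -0.48, SE 0.11, adjusted p 0.00415). All aged MPP1 and MPP2 libraries were below all young ones, at about the same distance. MPP3 had 1128 and 1162 CPM in young and 818 and 869.7 in aged cells and missed the threshold (log2 fold change -0.39, SE 0.11, adjusted p 0.0108). MPP4 had 904 and 868 CPM in young and 596 and 586 in aged cells (log2 fold change -0.50, SE 0.11, adjusted p 0.00155). GMPs went the other way, from 237 and 265 CPM in young to 367 and 328 in aged libraries (log2 fold change 0.41, SE 0.11, adjusted p 0.00643). In MEPs (285 and 362 CPM young, 358 and 388 aged) the libraries of the ages overlapped, and in CLPs (94.3 and 94.9 CPM in young and 68.0 and 93.6 in aged cells) the difference was not called (log2 fold changes 0.21 and -0.21).

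Genes of HSCs, summed over 6 markers, were among those lower in aged MPPs. Their sum was 852 and 786 CPM in young and 289 and 281 in aged MPP4 (4 of 6 called lower) and 1137 and 1129 against 546 and 516 in MPP3 (3 of 6 lower). In MPP1 it was 1848 and 1795 CPM in young and 1278 and 1261 in aged cells and in MPP2 1074 and 1075 against 678 and 682, where edgeR called 0 of the 6 and DESeq2 2 and 1, with 3 in each at an unadjusted p under 0.05. Macrophage genes were called lower in aged MPP1 to MPP4 as well (3, 6, 7 and 7 of 10). So were megakaryocyte genes in MPP2 to MPP4 (3, 4 and 2 of 6). Dendritic cell genes went the other way, with 3, 3, 1 and 3 of 6 called higher in MPP1 to MPP4. The part of any of these cells in the Kit differences was not tested.

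Each Kit call was lost without at least 1 library. Leaving out any of the 4 libraries ended the call in MPP1 (log2 fold change -0.45 to -0.37, adjusted p up to 0.129), in MPP2 (-0.49 to -0.43, up to 0.0637) and in GMPs (0.34 to 0.48, up to 0.0945), and in MPP4 it was lost without either aged library or young replicate 1 (-0.52 to -0.47, up to 0.0231). The GMP call was also lost once GC content and gene length were corrected by offsets (adjusted p 0.069). In young marrow the mean CPM ran in the order MPP1, HSC, MPP2, MPP3, MPP4, MEP, GMP, CLP, with overlapping ranges of MPP2 and MPP3. In aged marrow it ran in the order HSC, MPP1, MPP3, MPP2, MPP4, MEP, GMP, CLP, with overlap between HSCs and MPP1 and between MEPs and GMPs. On library sizes normalized by TMM, as used in the tests, aged GMPs (412 CPM) came before aged MEPs (391 CPM). The drop from the c-Kit+ MPP3 to the c-Kit+ GMPs was -1.80 in log2 in young (SE 0.11, adjusted p 6.80e-12) and -0.99 in aged cells (SE 0.11, adjusted p 9.98e-08). Over the 32 libraries the genes most like Kit in log2 CPM were Def8 (0.97), Rab38 (0.97) and Fkbp9 (0.96), with Pearson's r in parentheses. The 32 points behind such values, here and for the other receptors, share libraries, depth and the differences between fractions.

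Flt3, the receptor of lymphoid-primed progenitors, had lower transcript levels in aged HSCs and dropped out of the aged MEP libraries. HSCs, sorted as Flt3-, had 32.2 and 28.6 CPM in young and 19.3 and 14.2 CPM in aged libraries (log2 fold change -0.82, SE 0.19, adjusted p 0.00793). The ranges did not overlap, but the call was lost without aged replicate 2 or either young replicate (log2 fold change -1.01 to -0.65, adjusted p up to 0.0908) and with a replicate block together with GC content and length offsets (adjusted p 0.0117). MPP1 (92.5 and 93.7 CPM young, 67.6 and 71.3 aged) and MPP2 (98.9 and 100.3 CPM in young and 82.9 and 85.3 in aged cells) had log2 fold changes of -0.38 and -0.19 that were not called. MPP3 held 279.9 and 315 CPM in young and 172 and 216 in aged cells, and the Flt3+ MPP4 1131 and 1123 CPM in young and 682 and 781 in aged cells. These differences of -0.57 and -0.54 missed the threshold in edgeR (adjusted p 0.016 and 0.0183), although no young and aged libraries overlapped. GMPs had 11.6 and 6.88 CPM in young and 16.3 and 13.6 in aged cells (0.64, adjusted p 0.0256), a difference that was called without young replicate 1 (0.00252). CLPs had 589.6 and 576 CPM in young and 624 and 714 in aged libraries and no call (0.21, adjusted p 0.404).

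In MEPs, Flt3 had 44 and 16 counts in the young libraries (2.69 and 1.10 CPM) and 0 counts in both aged libraries, at least 7.37-fold lower against a floor of 3 counts per library (adjusted p 4.97e-05). Within the Flt3- gates, the young level went up by 1.59 in log2 from HSCs to MPP1 (SE 0.18, adjusted p 1.03e-06) and by 1.60 from MPP2 to MPP3 (SE 0.17, adjusted p 5.03e-06). The aged level rose by 2.03 and 1.22 over the same steps (adjusted p 4.08e-08 and 1.93e-04). CPM levels followed the order MPP4, CLP, MPP3, MPP2, MPP1, HSC, GMP, MEP at both ages, without overlap of neighbours in young and with overlap of MPP4 with CLPs and of HSCs with GMPs in aged cells. On TMM library sizes, aged GMPs (17.7 CPM) came before aged HSCs (15.8 CPM). The genes with the most similar pattern were Cdc42se2 (0.97), P2ry14 (0.96) and Cdk19 (0.96).

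Csf1r, the macrophage colony-stimulating factor receptor on chromosome 18, fell in aged MPP3 and remained high in GMPs at both ages. MPP3 had 33.6 and 36.0 CPM in young and 14.1 and 12.8 CPM in aged libraries (log2 fold change -1.32, SE 0.20, adjusted p 4.97e-05), and the call held without any 1 of the 4 libraries (-1.40 to -1.25). MPP2 had 20.9 and 21.7 CPM in young and 12.0 and 13.3 in aged cells, a difference of -0.70 that edgeR did not call (adjusted p 0.0212) and DESeq2 did (5.11e-04). MPP4, by contrast, had 23.5 and 20.4 CPM in young and 28.9 and 26.1 in aged cells (log2 fold change 0.41, SE 0.19, adjusted p 0.125). The aged libraries thus lay below the young ones in MPP2 and MPP3 and above them in MPP4. Levels were low in HSCs (1.42 and 3.09 CPM young, 0.932 and 1.38 aged) and MPP1 (3.31 and 4.29 CPM in young and 2.62 and 2.68 in aged cells), with uncalled log2 fold changes of -0.94 and -0.48. GMPs had 311 and 334 CPM in young and 286 and 291 in aged cells (-0.21, adjusted p 0.368), and CLPs 51.9 and 56.6 CPM in young and 43.7 and 69.2 in aged cells (0.07, adjusted p 0.869). MEPs had 27 and 14 counts in young and 0 and 4 in aged libraries (log2 fold change -2.89, SE 0.72, adjusted p 0.00396), a call that was lost without aged or young replicate 1 (log2 fold change -7.33 to -1.98, adjusted p up to 0.0598).

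Genes of mature myeloid cells were also lower in aged MPP3. The summed level of 6 monocyte genes was 306 to 307 CPM in young and 115 in both in aged MPP3, that of 10 macrophage genes 192 to 205 and 66.5 to 71.9, and that of 6 neutrophil genes 1223 to 1226 and 192 to 262. In aged MPP3, 4 of 6 monocyte, 7 of 10 macrophage and 6 of 6 neutrophil genes were called lower, and their part in the Csf1r difference was not tested. Some macrophage genes were called lower in aged cells of every fraction, among them 7 of 10 in MPP4 and 9 of 10 in CLPs, where Csf1r was not called. In MPP4, 0 monocyte and 0 neutrophil genes were called. From MPP1 to MPP2, which differ in CD48, Csf1r increased by 2.52 in log2 in young (SE 0.24, adjusted p 2.46e-07) and by 2.30 in aged cells (SE 0.26, adjusted p 5.85e-06). Among the 9 receptors, edgeR called only Csf1r between MPP1 and MPP2 at either age, whereas offsets for GC content and length added Epor and Csf3r in young cells and Csf3r in aged cells, and DESeq2 added Epor, Il7r and Csf3r in young and Kit in aged cells. The step from MPP3 to GMPs added 3.60 in young and 4.71 in aged cells (adjusted p 4.35e-13 and 2.97e-14). The most similar patterns were those of Clec12a (0.97), Plac8 (0.97) and Fcgr2b (0.97), and young levels ran in the order GMP, CLP, MPP3, MPP4, MPP2, MPP1, HSC, MEP, with overlap of MPP4 with MPP2 and of HSCs with MEPs.

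Epor, the erythropoietin receptor, was a MEP transcript at both ages and was lower in aged MPP3 and GMPs. MEPs had 218 and 225 CPM in young and 335 and 353 CPM in aged libraries, higher in both aged libraries but just outside the threshold in edgeR (log2 fold change 0.64, SE 0.19, adjusted p 0.0158) and called by DESeq2 (adjusted p 0.00358) and in the fit of the 4 MEP libraries (0.00424). The next highest fraction was MPP2 in young cells, 19.2-fold below MEPs, and HSCs in aged cells, 38.4-fold below. HSCs had 10.5 and 9.99 CPM in young and 6.44 and 11.5 in aged cells and MPP1 6.24 and 7.32 CPM in young and 6.85 and 6.53 in aged cells, with overlapping libraries. MPP2 had 10.0 and 13.01 CPM in young and 6.20 and 7.45 in aged cells (-0.70, adjusted p 0.0699). MPP3 had 4.45 and 4.19 CPM in young and 1.45 and 1.58 in aged cells (log2 fold change -1.46, SE 0.38, adjusted p 0.0071). Leaving out any of the 4 MPP3 libraries ended that call (log2 fold change -1.52 to -1.39, adjusted p up to 0.0537), as did leaving out the MEP libraries, an alternative added after the data were seen (0.0167). GMPs had 12 and 16 counts in the young libraries and none in either aged one, at least 3.53-fold lower against 3 counts per library (adjusted p 0.0028), lost without either aged library or young replicate 2 (adjusted p up to 0.0277). MPP4 had 16 and 8 counts in young and 3 and 4 in aged libraries and CLPs 4 and 22 counts in young and 16 and 30 in aged cells, without a call.

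Erythroid genes were also lower in aged GMPs and MPP3, and in fractions where edgeR did not call Epor. The sum of 6 erythroid genes (Klf1 and Rhag among them) was 115 to 131 CPM in young and 1.49 to 6.84 in aged GMPs, with 3 of 6 called lower and Rhag at 0 in both aged libraries. In MPP3 it was 149.8 to 310.3 and 28.9 to 31.8 CPM, with 4 of 6 called lower, and in MEPs 5109 to 5192 and 5817 to 6079 CPM, with 0 of 6 called by edgeR or by DESeq2 and 2 of 6 at an unadjusted p under 0.05. In MPP2, where DESeq2 but not edgeR called Epor, the sum was 227 to 233 and 39.4 to 50.6 CPM, with 4 of 6 called lower. In CLPs, where Epor was not called, it was 319 to 337 and 49.9 to 79.7 CPM. There edgeR called 0 of 6 and DESeq2 2. The part of erythroid RNA in the Epor differences was not tested. From MPP2 to MEPs, Epor rose by 4.43 in log2 in young (SE 0.24, adjusted p 7.02e-13) and by 5.78 in aged cells (SE 0.25, adjusted p 2.49e-14). Toward MPP3 it fell, by 1.40 in young and 2.16 in aged cells on the log2 scale (adjusted p 0.00392 and 8.12e-04). Without young MPP2 replicate 2 or either young MPP3 library the young step was not called (adjusted p up to 0.0641), nor without the MEP libraries (0.0256), nor was the aged step without aged MPP2 replicate 2 or either aged MPP3 library (up to 0.0205). Rhag, Tmem56 and Tspan8 had the patterns most like Epor over the 32 libraries (Pearson's r 0.95, 0.94 and 0.94), Rhag being a red cell membrane protein.

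Csf3r, the receptor of granulocyte colony-stimulating factor, was the receptor called higher in aged HSCs, and its aged levels lay above the young ones in MPPs and GMPs too. HSCs had 70.1 and 58.4 CPM in young and 127 and 152 CPM in aged libraries, 2.25-fold higher (log2 fold change 1.17, SE 0.10, adjusted p 1.14e-07). Each library left out in turn gave 0.99 to 1.33 and kept the call. MPP1 had 130.2 and 138 CPM in young and 172 and 174 in aged cells (log2 fold change 0.41, SE 0.10, adjusted p 0.00817), MPP2 166 and 168 CPM in young and 209 and 201 in aged cells (0.35, adjusted p 0.0197). MPP3 had 222 and 249 CPM in young and 267 and 298 in aged cells and MPP4 247 and 244 CPM in young and 256 and 262 in aged cells (0.31 and 0.16, adjusted p 0.0252 and 0.248). In GMPs the level went from 199 and 197 to 300.2 and 278 CPM (log2 fold change 0.49, SE 0.10, adjusted p 7.00e-04). In every one of these 6 fractions both aged libraries were above both young ones. MEPs had 26 and 26 counts in young and 3 and 8 in aged libraries (log2 fold change -1.82, SE 0.34, adjusted p 2.82e-04), and CLPs 24.5 and 24.0 CPM in young and 20.4 and 18.8 in aged cells (-0.29, adjusted p 0.0926). The MPP1 call was lost on leaving out any of the 4 libraries (0.40 to 0.49, adjusted p up to 0.0583) and when no gene was filtered out for low counts (0.0121), the GMP call without aged replicate 1 (0.0126) and the MEP call without aged replicate 1 (0.03, log2 fold change -2.69 to -1.34 over the 4 omissions).

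Neutrophil and GMP genes were also higher in aged HSCs. The 6 neutrophil genes (S100a8, S100a9, Camp, Ltf, Ngp and Lcn2) summed to 63.8 to 68.4 CPM in young and 310.3 to 334 in aged HSCs, with 6 of 6 called higher, and 6 GMP genes to 246 to 264 and 398 to 537 CPM, with 1 called. Their part in the Csf3r difference was not tested. In MPP3 the neutrophil sum went the other way (1223 to 1226 CPM young, 192 to 262 aged), while Csf3r had a log2 fold change of 0.31. By CPM of the total count, the order among young fractions was MPP4, MPP3, GMP, MPP2, MPP1, HSC, CLP, MEP, with overlap of MPP4 and MPP3. Among aged ones it was GMP, MPP3, MPP4, MPP2, MPP1, HSC, CLP, MEP, with overlap of GMPs and MPP3. On TMM library sizes young GMPs came first, at a mean of 244 CPM beside 232 in MPP4 and 221 in MPP3. Aged GMPs (354 and 333 CPM) then lay above aged MPP3 (260 and 289 CPM) without overlap. From young HSCs to young MPP1 Csf3r rose by 1.04 (SE 0.10, adjusted p 1.08e-07), whereas in aged cells the step was 0.27 and not called (adjusted p 0.0384). The difference between the steps was -0.76 and was not called by edgeR (adjusted p 0.0137). DESeq2 called it (3.05e-06), as did edgeR with GC content and length offsets (0.00272). The genes most like Csf3r were Rab31 (0.98), Klhl5 (0.98) and Pgm2 (0.97).

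Csf2ra, the alpha chain for granulocyte-macrophage colony-stimulating factor, was highest in GMPs, 3.85-fold above the next fraction in young and 4.91-fold in aged marrow. HSCs had 34.9 and 39.4 CPM in young and 36.4 and 41.5 CPM in aged libraries, which overlapped. MPP1 had 34.1 and 36.6 CPM in young and 28.0 and 29.6 in aged cells (-0.26, adjusted p 0.182). MPP2 had 37.0 and 34.5 CPM in young and 23.6 and 24.7 in aged cells and was the fraction with a call (log2 fold change -0.51, SE 0.12, adjusted p 0.0056), which any omitted library ended (-0.55 to -0.44, adjusted p up to 0.0649). MPP3 (34.4 and 36.6 CPM young, 25.5 and 26.0 aged) and MPP4 (38.1 and 36.4 CPM in young and 24.8 and 27.6 in aged cells) were close behind, at -0.41 and -0.42 (adjusted p 0.0151 and 0.0119). In MPP1 to MPP4 every aged library was below every young one. GMPs had 142 and 145 CPM in young and 183 and 199 in aged cells (0.36, adjusted p 0.016), above rather than below. MEPs (5.44 and 8.18 CPM young, 7.03 and 7.75 aged) and CLPs (33.4 and 34.7 CPM in young and 33.3 and 31.6 in aged cells) had log2 fold changes of 0.13 and -0.05 without a call. The step from MPP3 to GMPs was 2.40 in young and 3.18 in aged cells (SE 0.12 and 0.12, adjusted p 1.47e-13 and 4.67e-15), and that from MPP2 to MEPs -2.23 and -1.58 (adjusted p 2.54e-12 and 1.40e-09). Chst12 (0.98), Hexa (0.97) and Scp2 (0.96) had the most similar patterns.

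Il3ra, the interleukin-3 alpha chain, had no call with age, and its test depended on the MEP libraries. The young MEP duplicates had 0 and 48 counts and the aged ones 7 and 0, and with these 4 libraries in the fit the SE of its age differences was 0.41 in GMPs. GMPs held 21.2 and 24.0 CPM in young and 32.9 and 32.2 CPM in aged cells (0.47, adjusted p 0.43), without overlap. Leaving the MEP libraries out, an alternative chosen after the data were seen, gave 0.47 in GMPs with an adjusted p of 0.00366, which is called. The MEP difference itself was -2.36 (adjusted p 0.067), and without young replicate 1, which had 0 counts, it was called (adjusted p 1.68e-05), so that value rests on which duplicate is kept. HSCs had 9.69 and 9.99 CPM in young and 11.4 and 14.7 in aged cells, MPP1 11.0 and 10.9 CPM in young and 8.86 and 9.28 in aged cells, and MPP2 11.0 and 12.1 CPM in young and 11.7 and 10.9 in aged cells. MPP3 had 15.7 and 14.9 CPM in young and 14.8 and 14.0 in aged cells, MPP4 14.5 and 14.0 CPM in young and 14.3 and 12.8 in aged cells, and CLPs 17.8 and 18.2 CPM in young and 18.1 and 18.4 in aged cells. In these 6 fractions log2 fold changes lay between -0.23 and 0.46. Tigar (0.96), Ckap4 (0.93) and Arhgef10l (0.93) were the genes most like it, and the young order was GMP, CLP, MPP3, MPP4, MPP2, MPP1, HSC, MEP, with no overlap between neighbours.

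Il7r, the interleukin-7 receptor chain, belonged to CLPs at both ages and fell in aged MEPs and MPP3. CLPs, sorted as IL-7 receptor-positive, had 151 and 151 CPM in young and 185 and 183 CPM in aged libraries (log2 fold change 0.31, SE 0.21, adjusted p 0.363). MPP4 had 4.62 and 6.25 CPM in young and 5.41 and 6.71 in aged cells, which overlapped. From MPP3 to MPP4, both sorted as IL-7 receptor-negative, it rose by 1.86 in young (SE 0.37, adjusted p 0.00313) and by 5.36 in aged cells (adjusted p 7.00e-06), the aged start being 4 and 0 counts. The young step was not called without either MPP3 library or MPP4 replicate 2 (adjusted p up to 0.0553). MPP3 had 17 and 21 counts in young and 4 and 0 in aged libraries (log2 fold change -3.24, SE 0.75, adjusted p 0.0048), and this call was lost without aged replicate 2 or either young replicate (log2 fold change -7.26 to -2.34, adjusted p up to 0.0539). In aged MPP3, 3 of 7 B cell genes were called lower, and of 5 early lymphoid genes 1 was higher and 2 were lower. The early lymphoid sum was 66.0 and 66.2 CPM in young and 76.0 and 77.1 in aged MPP3. The part of lymphoid cells in the MPP3 difference was not tested. MPP2 had 5 and 7 counts in young and 3 and 4 in aged cells, HSCs 0 and 0 counts in young and 0 and 4 in aged cells, and the MPP1 and GMP libraries 0 at both ages, under the floor of 3 counts.

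MEPs carried 156 and 234 counts of Il7r in young (9.54 and 16.1 CPM) and 2 and 5 in aged libraries (0.178 and 0.412 CPM; log2 fold change -5.37, SE 0.46, adjusted p 2.26e-07). The call held without any 1 library (-6.17 to -4.93). All 5 early lymphoid genes (Dntt, Rag1, Rag2, Ly6d and Cd79a) were called lower in aged MEPs and were at 0 in both aged libraries, from a sum of 119 to 127 CPM in young ones. Of 7 B cell genes 6 were called lower (174 to 184 CPM young, 0.412 to 1.16 aged), with Cd79a, Ebf1, Pax5 and Igll1 among those at 0 in aged MEPs. In CLPs, for scale, the early lymphoid sum was 3790.4 to 3864 CPM in young and 3059 to 3638 in aged cells. Il7r was 11.8-fold lower in young MEPs than in young CLPs. The part of lymphoid cells in the MEP differences of Il7r and Flt3 was not tested, and the sort of MEPs was set to leave out lineage-positive (B220, CD4 and CD8 among the antigens) and IL-7 receptor-positive cells. Gfra1, Blnk and Arpp21 had the patterns closest to Il7r (Pearson's r 0.98, 0.96 and 0.95 over 32 libraries), Blnk being an adaptor of B cell receptor signalling.

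**Figure D3:**
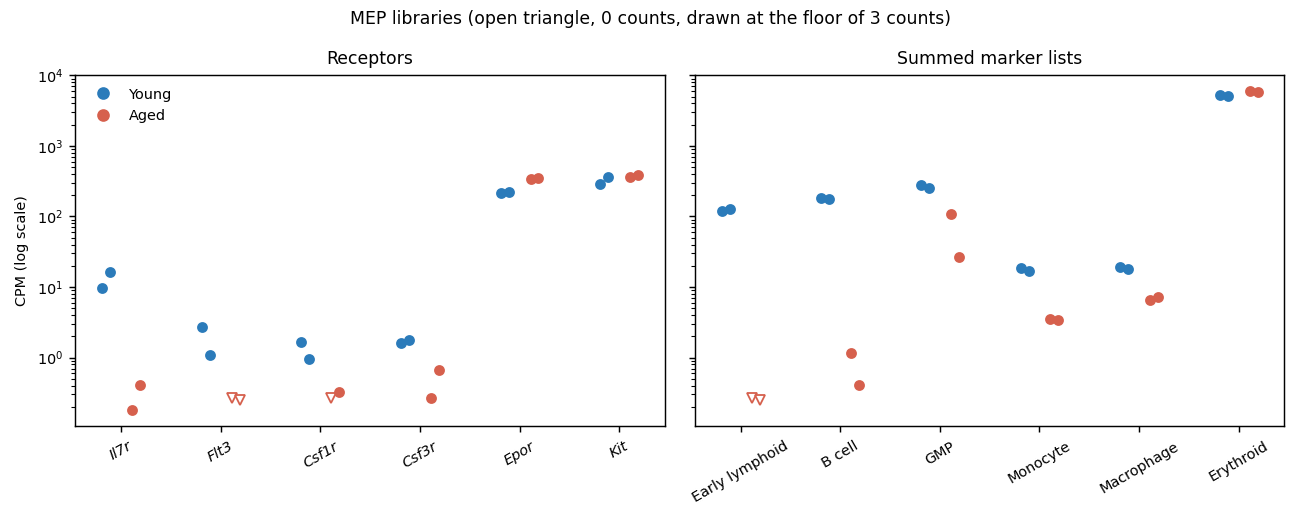
CPM on a log axis in the 4 MEP libraries for 6 receptors (left) and for summed marker lists (right); blue points are young and red aged libraries, and open triangles mark 0 counts, drawn at the floor of 3 counts. Il7r, Flt3, Csf1r and Csf3r and the lymphoid, GMP, monocyte and macrophage sums are lower in aged MEPs, while Epor, Kit and the erythroid sum are not.

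GMP, monocyte and macrophage genes were lower in aged MEPs too, beside Csf1r and Csf3r. The sum of 6 GMP genes was 251 to 278 CPM in young and 27.0 to 108 in aged MEPs (6 of 6 called lower), that of 6 monocyte genes 16.8 to 18.3 and 3.38 to 3.56 (3 of 6), and that of 10 macrophage genes 18.1 to 19.4 and 6.50 to 7.26 (5 of 10, with Adgre1, C1qa, C1qb, Cd5l and Fcna at 0 in aged MEPs). The 6 neutrophil genes did not go with them, at 5.08 and 4.81 CPM in young and 12.6 and 0.742 in aged MEPs, with 1 called higher (Ngp) and 0 lower. The part of these cells in the receptor differences was not tested. In the fractions other than MEPs the main test made 15 calls in 63 age differences, and fitting those fractions without the 4 MEP libraries, chosen after the data were seen, made 23, of which 14 were among the 15. Calls of all genes rose in each of these fractions as well, from 764 to 930 in HSCs and from 2674 to 2941 in GMPs.

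Il6ra, the interleukin-6 receptor chain, was lower in aged HSCs and higher in aged GMPs by the largest of the 5 called increases. HSCs had 17.6 and 14.6 CPM in young and 7.71 and 9.56 CPM in aged libraries (log2 fold change -0.84, SE 0.18, adjusted p 0.00461), without overlap. That call was lost without aged replicate 1 or either young replicate (-1.05 to -0.66, adjusted p up to 0.0612). MPP1 had 17.5 and 15.5 CPM in young and 11.2 and 9.49 in aged cells (-0.63, adjusted p 0.0227) and MPP2 12.4 and 12.8 CPM in young and 10.2 and 10.8 in aged cells (-0.21). MPP3 had 28.2 and 24.0 CPM in young and 18.0 and 16.3 in aged cells (-0.56, adjusted p 0.0202) and MPP4 41.9 and 34.3 CPM in young and 29.3 and 32.8 in aged cells (-0.21). Aged libraries were below young ones in HSCs and all 4 MPP fractions. GMPs turned this round, with 17.5 and 21.4 CPM in young and 53.7 and 52.7 in aged cells, 2.63-fold higher (log2 fold change 1.40, SE 0.17, adjusted p 2.69e-06) and 1.26 to 1.54 with each library left out in turn. CLPs had 22.4 and 22.8 CPM in young and 32.3 and 27.8 in aged cells (0.43, adjusted p 0.0793), and MEPs 5 and 2 counts in young and 0 and 3 in aged cells. In aged marrow GMPs were the fraction with most Il6ra by CPM (GMP, MPP4, CLP, MPP3, MPP2, MPP1, HSC, MEP), whereas in young marrow they were the fourth (MPP4, MPP3, CLP, GMP, MPP1, HSC, MPP2, MEP), and MPP1 and HSCs overlapped at both ages, as did MPP4 with CLPs and MPP2 with MPP1 in aged cells. On TMM library sizes young GMPs (24.0 CPM) came before young CLPs (23.7 CPM), and aged CLPs (31.9 CPM) before aged MPP4 (31.1 CPM). Beside it in GMPs, the neutrophil sum was 237 to 240.4 CPM in young and 94.1 to 122 in aged cells, the monocyte sum 4296 to 4389 and 3151 to 3701, and the eosinophil sum of 5 genes 1286 to 1349.9 and 2699 to 3821, and their part in the Kit, Csf3r and Il6ra increases was not tested. Gmip (0.99), Vav1 (0.98) and Parp8 (0.97) were most like Il6ra over the 32 libraries.

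Averaged over MPP1 to MPP4, 7 of the 9 receptors were called, 6 lower and 1 higher in aged cells, in a contrast in which 36.7% of all genes were called. The mean log2 fold changes were -0.95 for Epor, -0.52 for Csf1r, -0.45 for Kit, -0.42 for Flt3, -0.40 for Il6ra and -0.40 for Csf2ra, and 0.31 for Csf3r. Kit had the smallest SE and adjusted p of the decreases (0.05 and 5.28e-07), and Epor the largest (0.23 and 0.00177), the Epor call being lost without young MPP4 replicate 1 (adjusted p 0.0271). The median of all tested genes in this contrast was -0.04.

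The age difference depended on the fraction for 8 of the 9 receptors, Il3ra being the exception (adjusted p 0.427), where 34.9% of all genes passed the same test of 7 degrees of freedom. Without the MEP libraries the call for Il7r was lost (adjusted p 0.0111). For Il3ra it appeared without young MEP replicate 1 (adjusted p 2.28e-04). Neighbouring fractions were compared next, 7 steps for each receptor, and 10 of 63 differences of age differences were called (7.69% over all genes). Of these, 5 lay between MPP3 and GMPs (19.7% of all genes called at that step) and each was positive, so the change with age was more upward in GMPs than in MPP3. It was 1.96 (SE 0.24, adjusted p 3.33e-06) for Il6ra, 1.21 (SE 0.27, adjusted p 0.00166) for Flt3 and 1.11 (SE 0.26, adjusted p 0.00232) for Csf1r. For Kit it was 0.80 (SE 0.15, adjusted p 4.01e-04) and for Csf2ra 0.77 (SE 0.16, adjusted p 9.58e-04). The Csf1r call was lost without either aged GMP library, young GMP replicate 1 or replicate 2 of young or aged MPP3 (adjusted p up to 0.0146), and that of Flt3 without aged GMP replicate 1 or young GMP replicate 2 (up to 0.0189).

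Between MPP2 and MEPs, where 16.1% of all genes were called, Kit and Epor changed upward and Flt3 and Csf3r downward. The difference was 0.69 (SE 0.15, adjusted p 0.00201) for Kit and 1.34 (SE 0.32, adjusted p 0.00404) for Epor. For Csf3r it was -2.17 (SE 0.35, adjusted p 1.02e-04), and for Flt3, at 0 counts in aged MEPs, the fitted value has no stable size (adjusted p 1.93e-04). The call for Kit was lost without aged MEP replicate 2, young MEP replicate 1 or either young MPP2 library (log2 0.53 to 0.87, adjusted p up to 0.02). That for Epor was lost without either aged MEP, either aged MPP2, young MEP replicate 1 or young MPP2 replicate 2 (1.08 to 1.48, up to 0.0405). Csf1r was the receptor called between MPP3 and MPP4 (0.177% of all genes called), at 1.73 (SE 0.27, adjusted p 0.00274), and leaving out any of the 8 libraries ended that call (1.61 to 1.80, up to 0.0274).

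**Figure D4:**
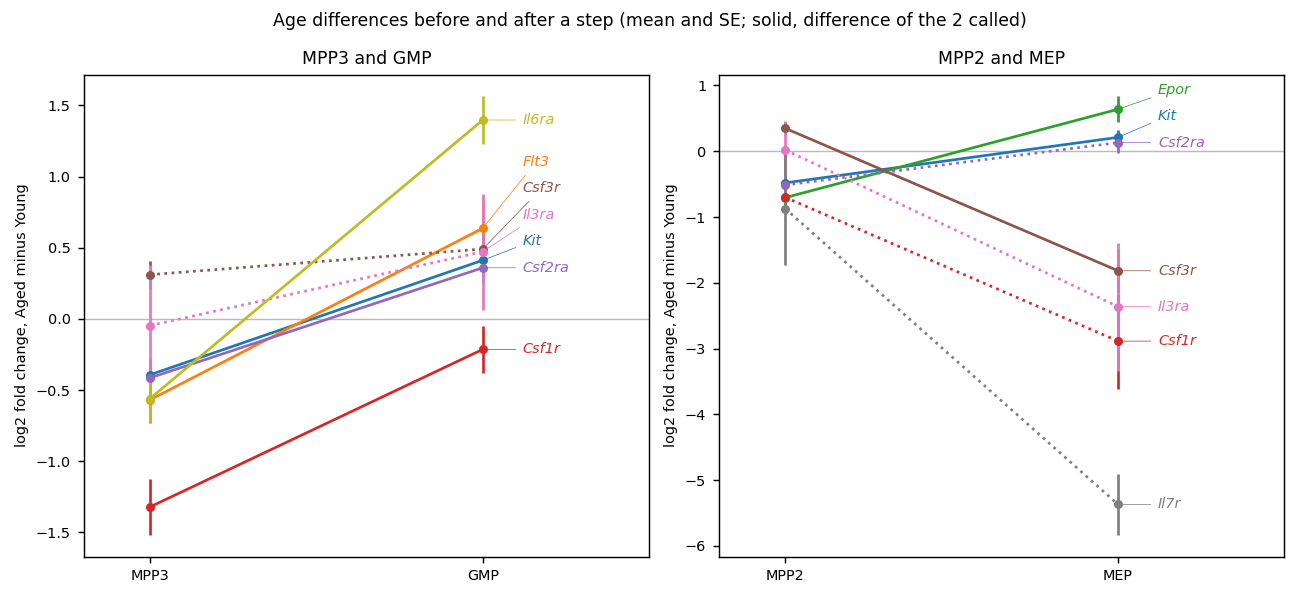
Log2 fold change with age (vertical axes, with SE) in MPP3 and GMPs (left) and in MPP2 and MEPs (right), 1 line per receptor; solid lines mark receptors whose 2 age differences differed at an adjusted p under 0.01, and receptors at the floor of counting are left out. Il6ra moves from -0.56 in MPP3 to 1.40 in GMPs, and Csf3r from 0.35 in MPP2 to -1.82 in MEPs.

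Among the lineage steps within an age, leaving out 4 for receptors stained in the sort (Flt3 from MPP3 to MPP4, and Kit, Il7r and Flt3 from MPP4 to CLPs), 27 of 59 were called in young cells (12 up and 15 down, 27.7% over all genes) and 30 of 59 in aged cells (16 up and 14 down, 25.5% over all genes). Of the steps within the MPPs, the share of all genes was smallest from MPP2 to MPP3 (2.39% in young and 1.34% in aged cells), where 4 of 9 receptors were called in young and 3 in aged cells. From HSCs to MPP1, 2 of 9 were called at each age (all genes 14.8% young and 22.9% aged), and from MPP1 to MPP2 1 of 9 (6.82% and 5.55%). From MPP3 to MPP4 the calls were 2 of 8 in young and 4 of 8 in aged cells (5.78% and 4.25%). The step from MPP3 to GMPs was called for 6 of 9 in young and 8 of 9 in aged cells (58.0% and 43.6%), and that from MPP4 to CLPs for 3 of 6 and 4 of 6 (41.8% and 40.5%). The step from MPP2 to MEPs was called for all 9 receptors in young and for 8 in aged cells, in steps at which 64.0% and 60.5% of all genes were called. Epor rose at both ages, and Kit, Flt3, Csf1r, Csf2ra, Csf3r, Il3ra and Il6ra fell. The log2 fold change of Csf3r was -6.46 in young and -8.62 in aged cells. Il7r rose by 4.91 in young cells (adjusted p 1.16e-08), beside the lymphoid genes given above, and had 3 and 4 counts in aged MPP2 and 2 and 5 in aged MEPs, without a call (adjusted p 0.73). From MPP4 to CLPs, Csf3r fell by 3.19 in young and 3.64 in aged cells (adjusted p 2.03e-15 and 4.59e-16), whereas Csf1r rose by 1.45 and 1.11 (adjusted p 1.10e-06 and 2.63e-05). Dendritic cell genes, summed over 6, were at 243 to 269.8 CPM in young MPP4 and 3038 to 3134 in young CLPs, and at 609 to 635 and 7339.8 to 9739 in the aged fractions, and their part in the Csf1r step was not tested. Across the gates, Flt3 went from 297 CPM in Flt3- MPP3 to 1127 in Flt3+ MPP4 of young mice, and Kit from 886 in MPP4 to 94.6 in c-Kit low CLPs.

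Among the receptors themselves, the patterns most alike over the 32 libraries were those of Il3ra and Il6ra (Pearson's r 0.87) and of Csf3r and Il6ra (0.85), and the least alike those of Epor and Il6ra (-0.92). These values describe shared high and low fractions and carry no test.

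The other cytokine receptor chains had more age calls in CLPs than in any other fraction. Of 34 further chains, all of which passed the filter, 10 were called higher and 1 lower in aged CLPs (10.4% of all genes called), where 0 of the 9 receptors had been called. In aged MEPs 1 was higher and 7 lower, a share near the 20.8% of all genes. HSCs had 4 higher and 0 lower (all genes 5.4%). MPP1 (6.8%) and GMPs (18.9%) each had 1 higher and 1 lower, MPP2 2 and 1 (7.81%), MPP3 2 and 4 (13.9%), and MPP4 1 and 3 (16.6%). The median log2 fold change of the chains was 0.34 in CLPs, where that of all genes was 0, and -0.15 in MEPs. In CLPs, the sum of 6 dendritic cell genes was 3038 to 3134 CPM in young and 7339.8 to 9739 in aged libraries and that of 6 plasmacytoid dendritic cell genes 1904 to 1931 and 3653 to 5310.1, and their part in the receptor calls was not tested.

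**Figure D5:**
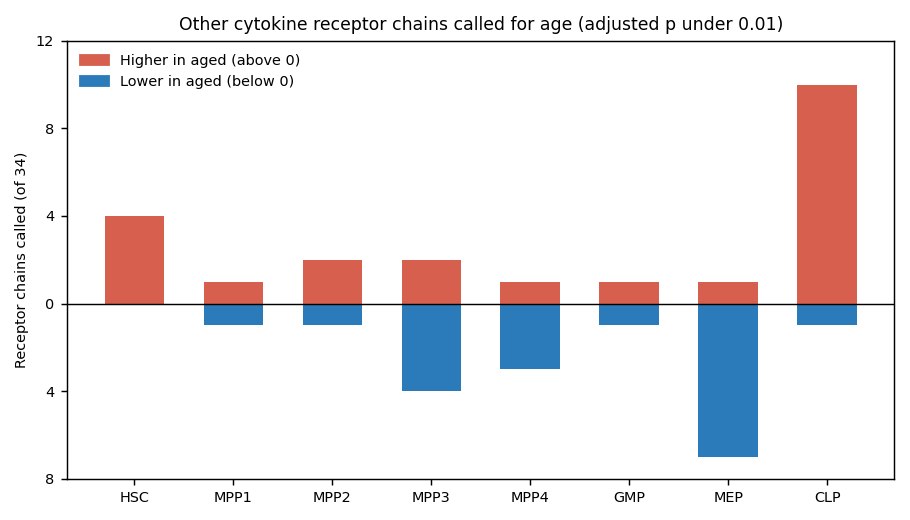
Number of 34 other cytokine receptor chains called at an adjusted p under 0.01 in each fraction; bars above 0 count chains higher and bars below 0 chains lower in aged cells. CLPs have 10 higher and MEPs 7 lower.

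Il1r1, the interleukin-1 receptor, was called higher in aged HSCs, MPP1, MPP2 and MPP3. It went from 19.6 and 18.9 to 47.1 and 43.0 CPM in MPP1 (log2 fold change 1.27) and from 27.3 and 25.8 to 61.9 and 62.6 in MPP2 (1.28), against 0.24 in MPP4, which was not called. Il11ra1, the interleukin-11 receptor alpha chain, was called higher in aged MPP3, MPP4, GMPs and CLPs, by 0.41, 0.53, 0.50 and 1.11. Il21r, the interleukin-21 receptor, was lower in aged MPP1 (-0.55), MPP2 (-0.57), MPP3 (-0.68), MPP4 (-0.78) and MEPs (-1.22) and higher in CLPs (0.88). Lepr, the leptin receptor, had 142 and 117 counts in young MPP3 libraries and none in either aged one, at least 46.6-fold lower. In HSCs it went the other way, from 0 counts in both young to 45 and 39 in the aged libraries, at least 13.6-fold higher. Il13ra1, a chain for interleukin-13, had 0 counts in both young and 29 and 23 in aged HSC libraries, at least 8.46-fold higher. These bounds hold against the floor of 3 counts only, and duplicates could differ by more. Lepr had 26 and 0 counts in the young MPP1 libraries, 34 and 0 in young MPP4 and 33 and 3 in young CLPs.

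Most ligand genes on the list did not pass the filter on low counts. Csf1 did pass it, and its CPM was higher in HSCs than in any other fraction at both ages. Of 13 ligand genes 6 passed the filter, and over the 8 fractions the only call by edgeR was Csf1 in CLPs, at 18.6 and 16.5 CPM in young and 8.64 and 6.15 in aged libraries (log2 fold change -1.22, adjusted p 0.00419), while DESeq2 also called 1 ligand, again Csf1, in MEPs. Tslp, the other ligand named by its size of change, was at or under 2 counts in each CLP library and had 2.36 and 3.61 CPM in young and 4.03 and 4.99 in aged GMPs. Of 20 kinases, adaptors and Stat genes, 3 were higher and 5 lower in aged MEPs (all genes 20.8%), 4 and 1 in GMPs (18.9%) and 5 and 0 in CLPs (10.4%). In MPP1 and MPP2 edgeR called 0 of them, with 7 and 6 at an unadjusted p under 0.05 and 2 and 4 called by DESeq2. Fyn, a Src-family kinase, was higher in aged CLPs (1.11) and lower in aged MEPs (-0.71).

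Of 14 inhibitors of receptor signalling, 9 were lower and 0 higher in the mean over aged MPP1 to MPP4 (list median -0.28, beside -0.04 for all genes, of which 36.7% were called), while in GMPs 3 were higher and 1 lower (all genes 18.9%). In HSCs edgeR called 0 inhibitors and DESeq2 1, with 5 at an unadjusted p under 0.05. Dok2, a docking protein that limits kinase signals, was lower in aged MPP1 (-0.47), MPP2 (-0.71), MPP3 (-0.68) and MPP4 (-0.98, 139 and 140.2 CPM young and 66.2 and 66.6 aged) and in MEPs (-1.91). Socs2, a feedback inhibitor of cytokine receptors, was lower in aged MPP4 (-1.49), MEPs (-2.46) and CLPs (-0.87) and higher in MPP2 (0.71).

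Of 15 transcription factors of blood lineages, 8 were lower and 0 higher over aged MPP1 to MPP4 (list median -0.30; 36.7% of all genes called), with 7 lower and 0 higher in MPP3 (all genes 13.9%) and 5 lower and 1 higher in MEPs (20.8%). In MPP1 edgeR called 0 of them and DESeq2 5, with 6 at an unadjusted p under 0.05. Foxo1, a factor known to be needed for Il7r expression in lymphocytes, was called lower in aged MPP3 (-0.70), GMPs (-0.58), MEPs (-1.39) and CLPs (-0.65, 167 and 163 CPM young and 104 and 103 aged). In those CLPs Il7r itself was not called. Ebf1, which specifies B cells, had 199 and 180 counts in young MEP libraries and none in either aged one, at least 47.7-fold lower, and went from 117 and 114 to 56.6 and 64.2 CPM in CLPs (log2 fold change -0.92, adjusted p 0.00809). Gata2, a stem cell and mast cell factor, fell in aged CLPs from 46.8 and 53.9 to 0.642 and 4.15 CPM (-4.38), where basophil and mast cell genes, summed over 6, were at 1666 to 1699.8 CPM in young and 7.64 to 11.8 in aged libraries, and their part was not tested.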

How the data were processed

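RNA from 32 libraries (8 fractions, 2 ages, 2 libraries each) was measured by sequencing of amplified cDNA (SMARTer Ultra Low Input kit). The authors aligned reads to mm10 with TopHat2 2.0.13 and Bowtie2 2.1.0, and deposited raw counts per gene made with StringTie, without molecular identifiers and with no use of strand stated, so intervals and floors cover counting error only. Amplified reads are not independent molecules. A normalized table and the authors' 8 tables of DESeq2 results (means, log2 fold changes, errors and p-values) were not used. All 32 columns of the count table were matched to samples by name. Of 24421 gene names, 27 had been turned into dates, and 667 were matched to the annotation through an older symbol.

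Counts were fitted with edgeR 4.0.16 (R 4.3.3): TMM normalization (factors 0.807 to 1.11), filterByExpr over the 16 groups (14154 genes kept), 1 mean per group, quasi-likelihood F-tests with 16 residual degrees of freedom and Benjamini-Hochberg adjustment over all genes within each contrast, two-sided, called at an adjusted p under 0.01, the threshold of the study's own DESeq2 tests. The SE is the absolute log2 fold change divided by the square root of F. Contrasts were aged minus young in each fraction, their mean over MPP1 to MPP4, 7 lineage steps at each age, the difference of each step between ages, and 1 test of equal age differences. Levels are CPM of the total count, and CPM per kb of merged GENCODE M21 exons between genes. Libraries totalled 11237384 to 17723245 counts. Duplicates differed beyond sampling noise (chi-square per gene 4.59 to 19.0), so none was taken for a copy. On simulated counts for the HSC comparison (14154 genes), 73% of changes of 1 and 91% of changes of 2 in log2 were called.

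Alternatives were DESeq2 1.42.0, its size factors, no filter, a replicate block, offsets for GC content and gene length (known for 98.9% of tested genes), an adjusted p under 0.05, a minimum log2 change of 1, only the 4 libraries of a fraction, each library left out, and, added after the data were seen, no MEP libraries. The members and gene lists were chosen with earlier results of these data known. Named were the 9 receptors, the 3 genes most correlated with each (Pearson's r of log2 CPM, prior count 2), and of each pathway list the genes called the same way in 4 or more fractions and the 2 of largest log2 change with a mean of at least 1 CPM. Tables were handled with pandas 2.3.3 and plots drawn with matplotlib 3.10.9. Some genes that these rules name are not reported here.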

Additional observations from a re-analysis of the deposited data

Results flagged for a closer look

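The results below are those in which the age difference of a receptor differed between fractions by a test of the difference itself. In the test that the 8 age differences of a gene are equal (edgeR, 7 degrees of freedom), the adjusted p was 1.27e-06 for Csf3r, 3.28e-06 for Il6ra, 1.11e-05 for Il7r, 8.44e-05 for Flt3, 1.51e-04 for Kit, 2.36e-04 for Csf1r, 5.09e-04 for Epor and 8.78e-04 for Csf2ra. Each of these 8 calls held without any 1 library.

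Between MPP3 and GMPs, the age difference in GMPs minus that in MPP3 was 1.96 in log2 for Il6ra, 1.21 for Flt3, 1.11 for Csf1r, 0.80 for Kit and 0.77 for Csf2ra. Between MPP2 and MEPs, the age difference in MEPs minus that in MPP2 was 0.69 for Kit, 1.34 for Epor, -2.17 for Csf3r and, as a fitted value against 0 counts in aged MEPs that is no measure of size, -7.61 for Flt3. Between MPP3 and MPP4 it was 1.73 for Csf1r. In aged MEPs the early lymphoid genes were at 0 and the GMP genes at 27.0 to 108 CPM, from 251 to 278 CPM in young MEPs, and their part in the MEP values was not tested.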

How the results depend on the processing

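Of the 72 age differences edgeR called 19. DESeq2 called 32, among them all 19, an adjusted p under 0.05 gave 32, and 10 reached 1 in absolute log2 fold change. With DESeq2 the age calls of all genes rose in each fraction as well, from 764 to 1387 in HSCs and from 2943 to 3746 in MEPs. For the threshold of 0.05 and the minimum change, shares over all genes are not given here. For the 63 step-by-age differences, 10 calls became 17 with DESeq2 and 18 at an adjusted p under 0.05. With DESeq2 the calls of all genes rose at each step too, from 2782 to 3594 between MPP3 and GMPs. In the mean over MPP1 to MPP4, 0 of the 7 calls reached an absolute log2 fold change of 1. Leaving out 1 library at a time gave 16 to 19 age calls, 24 to 27 calls among young and 24 to 30 among aged lineage steps, 8 to 9 for age by fraction, 8 to 11 for step by age and 6 to 7 in the MPP mean, and no called difference changed sign in any alternative run. Replicate numbers did not pair the samples: same-numbered young and aged libraries of a fraction correlated by -0.056 to 0.070 in their deviations. With the replicate block the counts were 22 age calls (all 19 and 3 for Csf2ra), 27 young and 30 aged steps, 8 for age by fraction, 12 for step by age and 7 in the MPP mean. The age calls of all genes with the block were 759 in HSCs and 2989 in MEPs, beside 764 and 2943 without it. CPM on TMM library sizes moved 65 of 144 mean levels by more than the SD of their duplicates, and changed the orders of fractions given for Kit, Flt3, Csf3r and Il6ra. Without a filter on low counts the median of all genes shifted by 0.23 (log2) in the young and 0.16 in the aged step from MPP2 to MEPs. With 2 libraries per group, SDs are rough, and levels under 0.169 to 0.267 CPM cannot be told from 0. The causes of these changes were not tested.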
